A study of Mus musculus with 6 samples.

Results

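The miR-200 family was described in 6 small RNA libraries of mouse nephron progenitor cells. Its members were taken by name from the deposited table: the guide strands mmu-miR-200b-3p, mmu-miR-200a-3p, mmu-miR-429-3p, mmu-miR-200c-3p and mmu-miR-141-3p and the passenger strands mmu-miR-200b-5p and mmu-miR-200a-5p, written from here on without the species prefix. All 7 names were found among the 1034 mature miRNAs of the table. CD1 mice were sampled as E14.5 embryos or as newborns (P0), with 3 litter pools per stage and no other difference in genotype or treatment given by the labels. Values of a stage are listed in the order of replicates 1, 2 and 3. Up to 24 kidneys of a litter were pooled, cortical cells were released by 15 min of digestion with collagenase A and pancreatin, and progenitors were collected on magnetic beads with an antibody against the integrin Itga8. The collected cells are thus an enriched fraction of a digested cortex. A litter pool, not an animal, is the replicate. No miRNA that defines nephron progenitors was on the lists used, so the labelled cell type was not checked against its own markers.

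The miR-200 miRNAs are abundant in epithelial cells and low in mesenchymal cells. They repress Zeb1 and Zeb2, transcription factors that silence epithelial genes such as E-cadherin, and Zeb1 and Zeb2 in turn repress the miR-200 genes. In the developing kidney the ureteric bud and the tubules that form from it and from the nephron progenitors are epithelial, whereas uninduced nephron progenitors are mesenchymal. The family is therefore read here as a marker of epithelial RNA in the Itga8 fraction. In bulk RNA, fewer cells of a type and less RNA per cell cannot be told apart.

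The mature sequences (RefSeq, GRCm38.p6; 7 of 7 members matched, at the same positions as in the table) are shown because the family is defined by its seed, bases 2 to 8 from the 5′ end, which is printed in capitals. The seed is the part that pairs with target mRNAs.
miR-200b-3p: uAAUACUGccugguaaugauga
miR-200c-3p: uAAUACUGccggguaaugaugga
miR-429-3p: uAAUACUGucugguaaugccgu
miR-200a-3p: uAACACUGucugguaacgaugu
miR-141-3p: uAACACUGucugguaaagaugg
miR-200b-5p: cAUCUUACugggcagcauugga
miR-200a-5p: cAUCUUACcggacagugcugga

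The 5 guides fell into 2 seed classes. The seed AAUACUG was carried by miR-200b-3p, miR-200c-3p and miR-429-3p, and the seed AACACUG by miR-200a-3p and miR-141-3p. No other mature miRNA among the 1679 of the sequence table had either seed. Counted from the 5′ end, the change from the miR-200b-3p to the miR-141-3p seed was U4C. Within a class, miR-200b-3p and miR-200c-3p differed at 2 of 22 aligned bases (U11G and A22G), and miR-200a-3p and miR-141-3p also at 2 (C17A and U22G). miR-429-3p differed from miR-200b-3p at 4 bases, all outside the seed. Reads with sequencing errors or trimmed ends could be shared between such near copies, and how the authors' counting treated them is not given in the sources used here.

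The members came from 2 clusters, and each cluster held both seeds. Mir200b, Mir200a and Mir429 lie on the minus strand of chromosome 4 (mm10, the same assembly as GRCm38), at 156055681 to 156055750, 156054896 to 156054985 and 156053905 to 156053987, with gaps of 695 and 908 bases between them. In GENCODE M21 these hairpins are inside introns of the protein-coding gene Ttll10 on the same strand. Mir200b and Mir200a are also in an intron of the noncoding transcript Gm13648, and Mir429 is inside an exon of it. Mir200c and Mir141 lie on the minus strand of chromosome 6, at 124718322 to 124718390 and 124717914 to 124717985, with a gap of 336 bases. Both are in an intron of the noncoding transcript Gm15884, and Mir141 partly overlaps an exon of the unclassified transcript Gm29008.

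The 5′ end of Gm13648 is 4052 bases upstream of Mir200b. Its promoter window is shown because Zeb1 and Zeb2 are known to bind E-boxes of the form CACCTG. The window covers 250 bases before to 50 after the start (RefSeq, GRCm38.p6, chr4:156059753-156060052, minus strand, written 5′ to 3′), with the motif in capitals.
Gm13648 promoter: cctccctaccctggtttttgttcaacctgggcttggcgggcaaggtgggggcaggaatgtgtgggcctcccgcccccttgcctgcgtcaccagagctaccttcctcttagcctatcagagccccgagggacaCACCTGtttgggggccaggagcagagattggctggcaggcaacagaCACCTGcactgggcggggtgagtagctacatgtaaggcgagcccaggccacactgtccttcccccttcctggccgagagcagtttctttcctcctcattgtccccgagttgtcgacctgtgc
CACCTG, or its reverse complement CAGGTG, was found at 2 places, both as CACCTG on the transcript's strand, 118 and 72 bases before the start. Of 32851 promoter windows of the same length, 20.2% held at least 1 match and 2.88% at least 2. These matches describe the sequence and do not show binding in these cells. No promoter window was found for Gm15884, the transcript around Mir200c and Mir141, so the clusters were not compared. A part of Zeb1 or Zeb2 in the change between the stages was not tested.

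The values are TPM, reads divided by length and scaled to the same sum in each library. They compare miRNAs within a library, while between libraries a member's TPM also moves with the rest of the library. Recovered read totals ranged from 2649506 to 34934526 per library, and the smallest were E14.5 replicates 1 and 3. P0 replicate 1 stood apart from its stage: its mean Pearson correlation across the 670 miRNAs tested was 0.908 with the other P0 libraries and 0.948 with the E14.5 libraries. The member calls, some member fold changes, the cluster ratios and the chromosome 4 sum are therefore also given without it. The cell-type lists, the GC correction and the correlations are not. From E14.5 to P0 the median change of the tested miRNAs on the log2 scale was −1.20 when measured in TPM. It was −0.18 with median-of-ratios scaling, which sets the typical miRNA of each library to the same level. A change in TPM should be read against −1.20. The labels gave no batch or date.

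All 7 members were lower at P0 in TPM with no overlap between the stages, as were 46.4% of all tested miRNAs. Of the chromosome 4 guides, miR-200b-3p and miR-429-3p were left at 4.27% and 4.70% of their E14.5 level and miR-200a-3p at 7.46%. miR-200c-3p and miR-141-3p of the chromosome 6 cluster were left at 12.2% and 12.5%, and the passenger strands miR-200b-5p and miR-200a-5p at 9.90% and 21.04%. The order of miR-200a-3p and miR-200b-5p depended on the pseudocount, with log2 fold changes of −3.75 and −3.82 when 0.1 TPM was added in place of 1. The percentages are the limma fold changes on the log2(TPM + 1) scale. With median-of-ratios scaling, where 5.22% of all tested miRNAs were called lower, the 3 chromosome 4 guides still passed the test and the other 4 members did not.

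In the chromosome 4 cluster, miR-200b-3p had 3926, 845 and 2543 TPM at E14.5 and 276, 40.2 and 56.7 TPM at P0. miR-200a-3p, the most abundant member in 4 of the 6 libraries, had 11326, 1616 and 5560 TPM at E14.5 and 774, 176 and 308 TPM at P0. miR-429-3p had 4695, 933 and 2996 TPM at E14.5 and 319, 46.1 and 89.2 TPM at P0. For each of these 3 guides E14.5 replicate 1 was the highest library and E14.5 replicate 2 the lowest of its stage, while P0 replicate 1 was the highest of the P0 libraries. The lowest E14.5 value was 3.06 times the highest P0 value for miR-200b-3p, 2.92 times for miR-429-3p and 2.09 times for miR-200a-3p.

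In the chromosome 6 cluster, miR-200c-3p had 2324, 576 and 2743 TPM at E14.5 and 94.2, 203 and 343 TPM at P0. miR-141-3p had 912, 151 and 815 TPM at E14.5 and 78.7, 35.0 and 75.5 TPM at P0. E14.5 replicate 2 was again the lowest E14.5 library for both. At P0 replicate 1 was the highest library for miR-141-3p, as for the chromosome 4 guides, but the lowest for miR-200c-3p. The lowest E14.5 value was 1.68 times the highest P0 value for miR-200c-3p and 1.93 times for miR-141-3p.

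The passenger strands, which are mostly degraded when the guide is loaded into Argonaute, were far lower. miR-200b-5p had 57.9, 15.4 and 58.7 TPM at E14.5 and 5.32, 0.720 and 4.14 TPM at P0. Its lowest value rested on 16 reads. miR-200a-5p had 56.4, 14.9 and 36.4 TPM at E14.5 and 10.9, 4.46 and 3.91 TPM at P0, on 84 to 378 reads. The 5 guides rested on 777 to 38078 reads per library, so counting error was small beside the spread between litters.

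**Figure D1:**
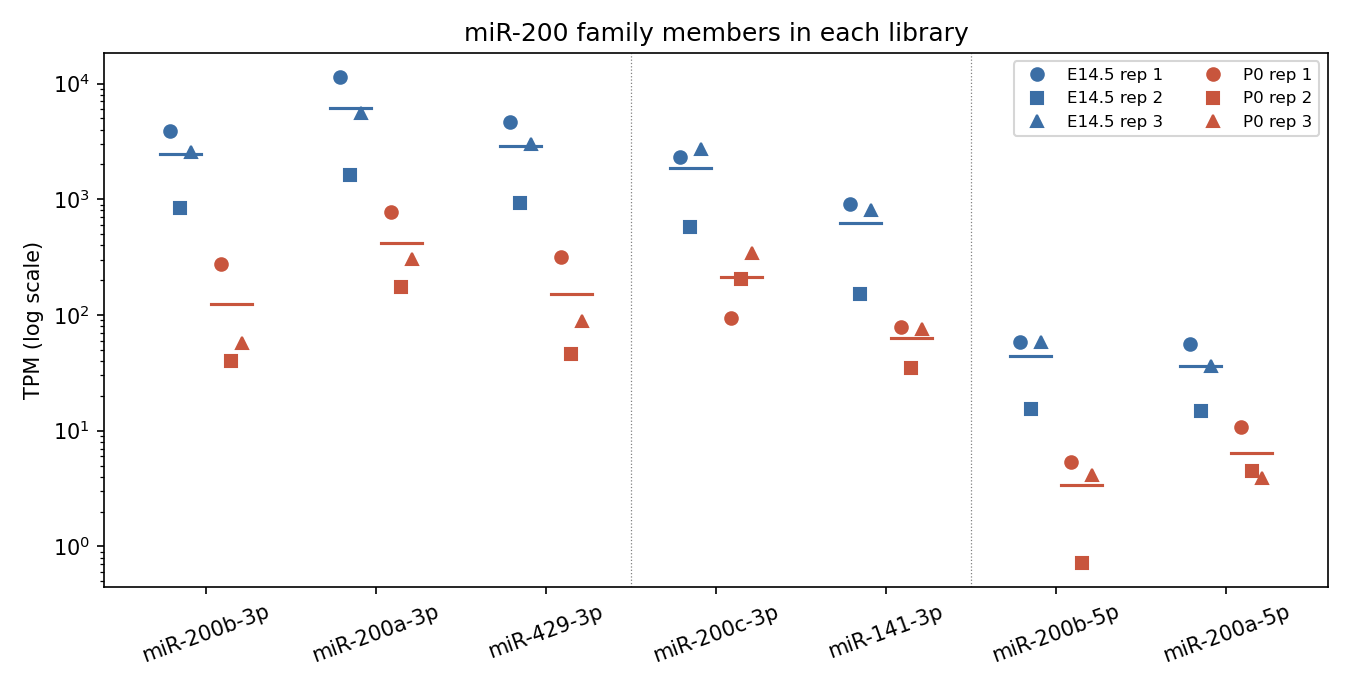
TPM (log axis) of the 7 members in each library. Points are libraries, coloured by stage, with the replicate given by the marker shape, and horizontal lines are the means of 3 libraries; the first 3 miRNAs are the chromosome 4 guides, the next 2 the chromosome 6 guides and the last 2 the passenger strands. All P0 points lie under all E14.5 points of the same miRNA, and P0 replicate 1 is the highest P0 library for miR-200b-3p but the lowest for miR-200c-3p.

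Limma on log2(TPM + 1) over 670 miRNAs called 7 of the 7 members lower at P0 at an adjusted p (Benjamini-Hochberg) below 0.05, where 32.8% of all tested miRNAs were called lower. miR-200b-3p changed by −4.55 on the log2 scale (SE 0.77, limma adjusted p = 0.00344) and miR-429-3p by −4.41 (SE 0.77, limma adjusted p = 0.00396). The change of miR-200a-3p was −3.75 (SE 0.74, limma adjusted p = 0.00485). The chromosome 6 guides had −3.04 (SE 0.69, limma adjusted p = 0.00773) for miR-200c-3p and −3.01 (SE 0.72, limma adjusted p = 0.00940) for miR-141-3p. The passenger strands had −3.34 (SE 0.72, limma adjusted p = 0.00653) for miR-200b-5p and −2.25 (SE 0.66, limma adjusted p = 0.0220) for miR-200a-5p. The median over the 7 members was −3.34, against −1.20 over all tested miRNAs. Single libraries moved these values by over 1.5 times. Without E14.5 replicate 2 the log2 fold changes were −5.18 for miR-200b-3p, −5.08 for miR-429-3p, −4.51 for miR-200a-3p, −3.74 for miR-200c-3p, −3.84 for miR-141-3p and −3.96 for miR-200b-5p. Without P0 replicate 1 they were −5.38 for miR-200b-3p and −5.18 for miR-429-3p. The change of miR-200a-3p was −3.11 without E14.5 replicate 1, and that of miR-429-3p was −3.80 without P0 replicate 2. No other library left out moved a member by that much. Without E14.5 replicate 3 the number of members called fell to 3, where 9.70% of all tested miRNAs were called lower. Without P0 replicate 1 it was 7, where 53.4% of all tested miRNAs were.

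After median-of-ratios scaling, 3 of the 7 members were called lower, where 5.22% of all tested miRNAs were. These were miR-200b-3p (log2 fold change −3.27, SE 0.68, limma adjusted p = 0.0309), miR-429-3p (−3.13, SE 0.68, limma adjusted p = 0.0309) and miR-200a-3p (−2.46, SE 0.68, limma adjusted p = 0.0461). With upper-quartile scaling miR-200a-3p had −2.33 and was not called (limma adjusted p = 0.0508). The other 4 kept negative values without passing the threshold. miR-200b-5p had −2.28 (limma adjusted p = 0.0628), miR-200c-3p −1.75 (0.127), miR-141-3p −1.73 (0.102) and miR-200a-5p −1.08 (0.232), each a limma log2 fold change with its adjusted p. The stages did not overlap, with P0 lower, for 4 of 7 members on this scale and for 19.6% of all tested miRNAs. The median over the members was −2.28, against −0.18 over all tested miRNAs. miR-200c-3p was one of the 3 whose stages overlapped, since P0 replicate 3 at 605 and E14.5 replicate 2 at 392 scaled TPM crossed. With the same scaling and without P0 replicate 1, limma called 4 members, the 3 chromosome 4 guides and miR-200b-5p, where 27.2% of all tested miRNAs were called lower. The log2 fold changes were then −3.94 for miR-200b-3p and −3.73 for miR-429-3p, further from 0 than with all libraries, but −1.09 for miR-200c-3p, nearer to 0.

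**Figure D2:**
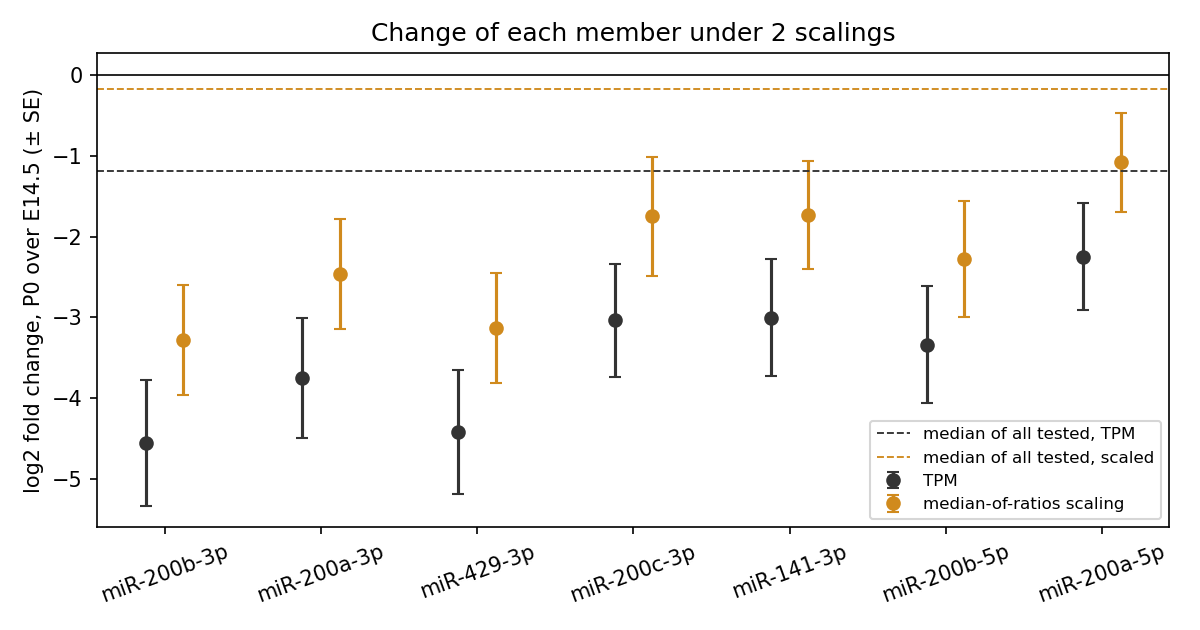
Limma log2 fold change of each member from E14.5 to P0 (vertical axis, with bars of ± 1 SE, from 3 libraries per stage) in TPM or with median-of-ratios scaling. Dashed lines are the medians of the 670 tested miRNAs, −1.20 (TPM) and −0.18 (scaled); each member lies under the median of its own scale.

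The authors' deposited table called 2 of the 7 members lower at P0 at an adjusted p below 0.05, and 5.32% of the 1034 miRNAs. In the authors' deposited table miR-200b-3p had a log2 fold change of −2.93 (adjusted p = 0.00208) and miR-429-3p of −2.69 (adjusted p = 0.00351). miR-200a-3p was next to the threshold in the authors' deposited table, at −1.98 (adjusted p = 0.0524). The chromosome 6 guides were nearer to 0 in the authors' deposited table, with −0.72 for miR-200c-3p (adjusted p = 0.417) and −0.82 for miR-141-3p (adjusted p = 0.405). These values come from the authors' own model and are not like for like with limma. The cause of their gap to the scaled limma values of −1.75 and −1.73 was not tested.

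Summed over the 7 members, the family made up 2.33% of the recovered reads in E14.5 replicate 1 (95% Wilson interval 2.32 to 2.35), 0.416% in replicate 2 (0.413 to 0.418) and 1.48% in replicate 3 (1.47 to 1.49). At P0 it made up 0.156% in replicate 1 (0.154 to 0.157), 0.0514% in replicate 2 (0.0505 to 0.0524) and 0.0895% in replicate 3 (0.0883 to 0.0908). These intervals cover counting error only. The summed level averaged 14067 ± 9591 TPM at E14.5 and dropped to 981 ± 534 TPM at P0 (SD, n = 3 each), so the family was present in every library of both stages. E14.5 libraries differed among themselves by 5.61 times and P0 libraries by 3.08 times. The E14.5 library with the lowest family level, replicate 2, was also the one of that stage with the most reads, 23691028, and the part of depth in its level was not tested.

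The ranks of the guides within a library do not depend on scaling. Among the 1034 miRNAs, miR-200a-3p ranked 23, 70 and 34 at E14.5 and 81, 123 and 92 at P0. miR-200b-3p ranked 44, 98 and 57 at E14.5 and 126, 220 and 196 at P0, and miR-429-3p ranked 40, 90 and 52, then 119, 207 and 167. The ranks of these 3 chromosome 4 guides did not overlap between the stages. miR-200c-3p ranked 60, 111 and 54 at E14.5 and 202, 113 and 88 at P0. miR-141-3p ranked 98, 206 and 104 at E14.5 and 217, 235 and 174 at P0. For both chromosome 6 guides P0 replicate 3 ranked above E14.5 replicate 2, so their ranks overlapped between the stages. With the passenger strands counted, the ranks of 4 of the 7 members did not overlap and were lower in the order at P0, as were those of 17.5% of the 670 tested miRNAs.

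The balance between the clusters was then compared, since a ratio within a library does not depend on scaling. The 3 chromosome 4 guides and their passenger strands held 86.1%, 82.5% and 75.9% of the family's TPM in E14.5 replicates 1, 2 and 3, and 88.9%, 52.9% and 52.5% at P0. P0 replicates 2 and 3 were the low libraries, and P0 replicate 1 was the highest of all. In those 2 libraries miR-200c-3p was the most abundant member, with 40.6% and 39.3% of the guides' TPM, against 10.02%, 14.0% and 18.7% at E14.5 and 6.11% in P0 replicate 1. miR-200b-3p moved the other way, from 16.9%, 20.5% and 17.4% at E14.5 and 17.9% in P0 replicate 1 to 8.03% and 6.51% in P0 replicates 2 and 3. Grouped by seed, the AAUACUG guides held 53.3% ± 5.46 of the family's TPM at E14.5 and then 52.4% ± 7.07 at P0 (SD, n = 3).

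**Figure D3:**
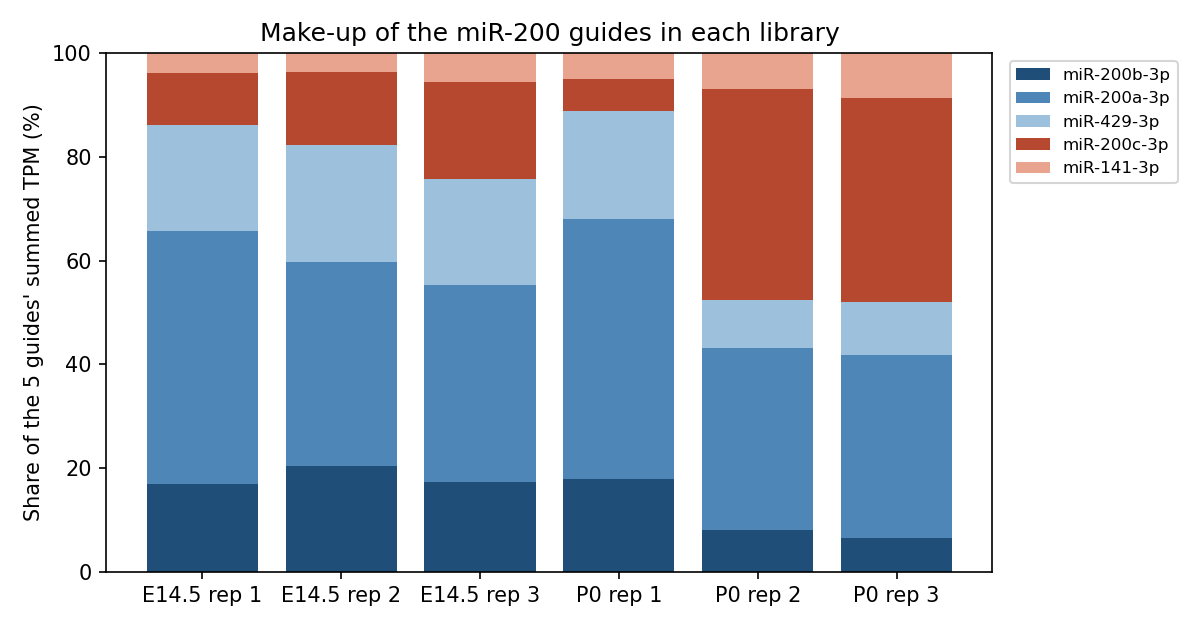
Share of each of the 5 guides in their summed TPM (%), stacked per library; blue shades are the chromosome 4 cluster and red shades the chromosome 6 cluster. miR-200c-3p takes 40.6% and 39.3% in P0 replicates 2 and 3 and between 6.11% and 18.7% in the other 4 libraries.

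Within a seed class, the ratio of the chromosome 4 to the chromosome 6 guide gave the same picture. The ratio of miR-200b-3p to miR-200c-3p was 1.69, 1.47 and 0.927 at E14.5 and 2.93, 0.198 and 0.165 at P0. The mean log2 ratio, with 1 TPM added to both values, was 0.40 ± 0.45 at E14.5, against −1.11 ± 2.30 at P0 (SD, n = 3), a difference that did not pass an exact two-sided permutation test (p = 0.4). The ratio of miR-200a-3p to miR-141-3p was 12.4, 10.7 and 6.82 at E14.5 and 9.83, 5.03 and 4.07 at P0 (exact two-sided permutation p = 0.2). With 3 libraries against 3 this test cannot go below 0.1. The 4 ratios tested here, 2 between clusters and 2 between arms, had adjusted p-values of 0.267 to 0.4. Without P0 replicate 1 the log2 difference of the miR-200b-3p to miR-200c-3p ratio grew from −1.51 to −2.84, with no overlap between the stages and an exact permutation p of 0.2, the smallest that 3 against 2 allow. It shrank to −0.92 without P0 replicate 2 and to −0.78 without P0 replicate 3 (exact permutation p = 0.8 for both). A difference between the clusters in their response to stage was thus seen in P0 replicates 2 and 3 and not in replicate 1, and did not pass a test over all libraries.

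The arms of 1 hairpin were compared in the same way. miR-200a-3p exceeded miR-200a-5p by 201, 108 and 153 times at E14.5 and by 71.2, 39.4 and 78.7 times at P0. The 5p arm took 0.496%, 0.913% and 0.651% of the hairpin's reads at E14.5 and 1.39%, 2.47% and 1.255% at P0. The P0 libraries were all above the E14.5 libraries, and the mean log2 ratio went from 7.17 ± 0.48 to 5.67 ± 0.57 (SD, n = 3; exact two-sided permutation p = 0.1, the smallest possible). For Mir200b the 5p share was 1.45%, 1.79% and 2.26% at E14.5 and 1.89%, 1.76% and 6.80% at P0, so only P0 replicate 3 stood out (exact two-sided permutation p = 0.2 for the log2 ratio). The base composition of the arms differed: the 5 guides had a GC content of 36.4% to 43.5% and the 2 passenger strands of 50% to 54.5%. The part of base composition in the arm shares was not tested.

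Across the table, GC content moved with the change between the stages. The 139 other tested miRNAs with a GC content in the range of the guides had a median of −1.67 for the log2 fold change in TPM and of −0.73 when scaled by median of ratios, and 46.8% and 7.91% of them were called lower. The 122 others in the range of the passenger strands had −0.92 in TPM and 0.22 after scaling. After a correction of each library for GC content, the log2 fold changes of the members in limma were −2.72 for miR-200b-3p, −2.83 for miR-429-3p and −2.16 for miR-200a-3p, and each was called (limma adjusted p: 0.0151, 0.0197 and 0.0415), where 5.15% of the 582 miRNAs tested with this correction were called lower and their median was −0.05. Those of miR-200c-3p, miR-141-3p, miR-200b-5p and miR-200a-5p were −1.58, −1.42, −2.22 and −1.35 and did not pass (limma adjusted p of 0.168, 0.150, 0.0563 and 0.166). The correction also removes most of the general shift of the table, so these values are to be set beside those with median-of-ratios scaling (−3.27, −3.13 and −2.46 for miR-200b-3p, miR-429-3p and miR-200a-3p) and not beside those in TPM.

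The other strands of the same hairpins, miR-141-5p, miR-200c-5p and miR-429-5p, were on record in the table as well. miR-141-5p had the largest passenger share of the 5 hairpins in 6 of 6 libraries, 9.23%, 7.01% and 7.51% of the reads at E14.5 and 5.95%, 14.3% and 16.0% at P0. miR-200c-5p and miR-429-5p took at most 0.464% and 0.402% of their hairpins' reads in any library. Both had 0 reads in P0 replicates 2 and 3, where a floor of 3 reads corresponds to at most 0.140 TPM.

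Over the 6 libraries, Pearson's r of log2(TPM + 1) was 0.998 between miR-200b-3p and miR-429-3p, 0.993 between miR-200a-3p and miR-429-3p and 0.988 between miR-200a-3p and miR-200b-3p. miR-141-3p was closer to these 3 guides of the other cluster, with 0.972 for miR-200a-3p, 0.956 for miR-429-3p and 0.942 for miR-200b-3p, than to its cluster mate miR-200c-3p, with 0.916. miR-200c-3p had the lowest values against the chromosome 4 guides, 0.832 with miR-200a-3p, 0.809 with miR-429-3p and 0.792 with miR-200b-3p, with which it shares a seed. The points share the libraries and the general difference between the stages, so these values are descriptions. Of 424 other miRNAs averaging 10 TPM or more, those most like the mean of the 5 guides in TPM were miR-653-5p (r = 0.991), miR-582-5p (0.991), miR-30c-2-3p (0.986), miR-32-5p (0.986) and miR-106b-5p (0.986), where the median candidate had 0.770. On the scaled values, where the median candidate had 0.02, miR-30c-2-3p lost the likeness (r = −0.03), whereas miR-653-5p, miR-582-5p and miR-106b-5p kept r of 0.973, 0.980 and 0.972. The 5 most alike on this scale also held miR-451a (0.972), which is on the erythroid list used below, and miR-20a-3p (0.971). In P0 replicate 2 miR-653-5p had 0.047 TPM, under the floor of 3 reads (0.135 TPM).

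The family was set beside other lists of cell-type miRNAs. Of 6 other epithelial miRNAs, 3 were called lower in TPM and none higher, with a median log2 fold change of −1.85, against 32.8% called lower and a median of −1.20 over all tested miRNAs. miR-96-5p had 1559, 856 and 1744 TPM at E14.5 and 360, 86.3 and 29.8 TPM at P0 (log2 fold change −3.74, limma adjusted p = 0.00605). miR-375-3p (−3.44, limma adjusted p = 0.0113) and miR-203-3p (−1.84, limma adjusted p = 0.0486) were the others called. miR-182-5p and miR-183-5p, transcribed together with miR-96-5p, had values of 0.63 and 0.65 and were not called (limma adjusted p of 0.279 and 0.383). The summed level of this list was mostly that of miR-182-5p and miR-183-5p. It was 6435 to 8615 TPM at E14.5 and 5815 to 13663 TPM at P0, so it overlapped between the stages. The miR-200 sum did not overlap, and neither did the endothelial, stromal, erythroid and leukocyte sums given below. After median-of-ratios scaling, 1 of the 6 was called lower and 1 higher, where 35 (5.22%) of the 670 tested miRNAs were called lower and 38 higher. These were miR-96-5p (log2 fold change −2.47, limma adjusted p = 0.0461) and miR-182-5p (1.92, limma adjusted p = 0.0333). Of the kidney tubule list, 4 of 5 were in the table and 1 of the 3 tested, miR-204-5p, was called lower in TPM (−1.96, limma adjusted p = 0.0193). After scaling none of the 3 was called, and miR-204-5p had −0.69 (limma adjusted p = 0.306). The summed level of the list was 766 to 1525 TPM at E14.5 and 264 to 1009 TPM at P0, with P0 replicate 1 inside the E14.5 range.

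The lists for other cell types were read against the 32.8% of all tested miRNAs called lower in TPM and their median of −1.20. The 2 endothelial miRNAs, both arms of miR-126a, summed to 26608 to 44921 TPM at E14.5 and 5634 to 8158 TPM at P0, and 2 of 2 were called lower. The 5 stromal miRNAs summed to 83971 to 100537 TPM at E14.5 and 33349 to 45658 TPM at P0, with 3 of 5 called lower. The 4 erythroid miRNAs summed to 242 to 417 TPM at E14.5 and 127 to 189 TPM at P0, with 1 of 4 called lower, and the 5 leukocyte miRNAs to 797 to 1540 and 507 to 751 TPM, with 1 of 5 called lower. The median log2 fold changes in TPM were −3.10 for the endothelial, −1.25 for the stromal, −1.67 for the erythroid and −0.86 for the leukocyte list. miR-486a-5p of the erythroid list (0.76) and miR-223-3p of the leukocyte list (0.36) had positive log2 fold changes in TPM and were not called. None of the 11 endothelial, erythroid and leukocyte miRNAs was at 0 in any library. After the same scaling, with 5.22% of all tested miRNAs called lower, 1 endothelial and no stromal, erythroid or leukocyte miRNA was called lower and 1 leukocyte miRNA was called higher, and the list medians were −1.81, 0.03, −0.54 and 0.40. Those called were miR-126a-5p (log2 fold change −2.94, limma adjusted p = 0.0333) and miR-223-3p (1.63, limma adjusted p = 0.0401). The part of a general change in cell content in the values of the miR-200 members was not tested.

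**Figure D4:**
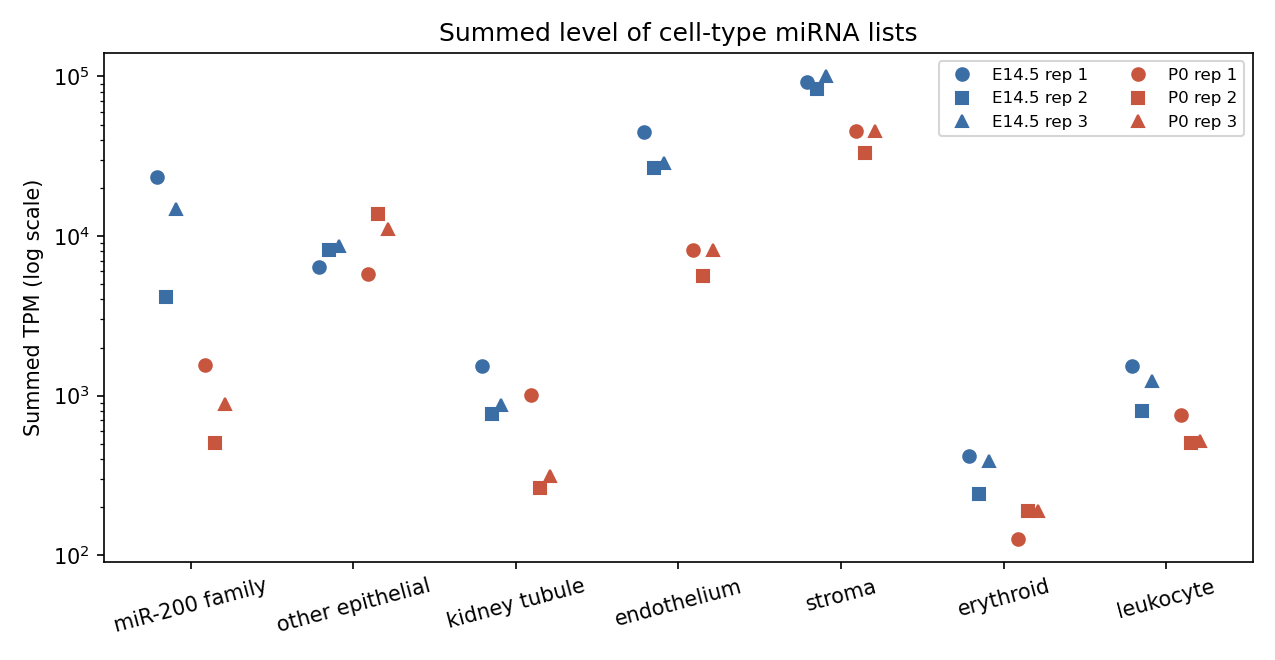
Summed TPM (log axis) of the miR-200 family and of 6 lists of cell-type miRNAs in each library; points are libraries, coloured by stage, with the replicate given by the marker shape. The miR-200 sum lies between 4152 and 23298 TPM at E14.5 and between 505 and 1558 TPM at P0. The endothelial, stromal, erythroid and leukocyte sums do not overlap between the stages either, while the other epithelial and kidney tubule sums do.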

How the data were processed

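The authors deposited 1 table of 1104 rows with TPM values for 6 libraries, from QIAseq miRNA libraries, per the labels' protocols. featureCounts, DESeq2 1.26.0 and mm10 are named in the submitters' processing notes. Trimming, aligner and use of molecular tags are not given in the sources used here. The deposited table also holds a log2 fold change and its error, a test score, p-value, adjusted p-value and a mean normalised signal. Its log2 fold change was read as P0 over E14.5, since its sign follows the values.

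TPM times (end minus start) came in whole steps for 100% of values (tolerance 0.001), which gave read numbers. One row, the highest, was kept per miRNA. Limma 3.58.1 (R 4.3.3, mean-variance trend) was run on log2(TPM + 1) for the 670 miRNAs averaging 1 TPM or more, on all 6 libraries with stage as the only term. The fit was also run on simulated counts with as many raised as lowered miRNAs. That simulation held no general shift of the table, so it cannot show whether calls in TPM are sound here. This scale understates the change of low miRNAs. Reads of a miRNA with several genomic copies stand in each row. Wilson intervals and the floor of 3 reads cover counting error only. The labels give separate litters per sample. The 7 members and the marker lists were chosen with earlier results of these data known. Named miRNAs are the members, the other arms of their hairpins, the 5 miRNAs of at least 10 TPM most correlated with the guides, and epithelial list members that passed the test or were among the 3 most abundant. Single members of the other lists (miR-204-5p, both arms of miR-126a, miR-451a, miR-486a-5p and miR-223-3p) and miR-20a-3p were named outside this rule. Alternatives were other scalings, filters and pseudocounts, limma-voom on the reads, summed rows, a GC correction (sequences for 582 of the 670), the replicate block, and leaving out each library.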

Additional observations from a re-analysis of the deposited data

How the results depend on the processing

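In TPM, 229 miRNAs and 7 of the 7 members were called, with 32.8% of all tested miRNAs called lower. Of the 20 alternatives, 9 also called 7 members. In those 9, 20.6% to 53.4% of the tested miRNAs were called lower. Their median log2 fold change over all tested miRNAs was −1.55 to −0.64, so the general shift of the table remained in them. miR-200b-3p and miR-429-3p were called in all 20, with log2 fold changes between −5.38 and −2.72 for miR-200b-3p and between −5.18 and −2.83 for miR-429-3p. No member changed sign under any alternative. Median-of-ratios scaling called 73 miRNAs (35 lower, 38 higher) and 3 members, upper-quartile scaling 63 (25 lower, 38 higher) and 2 members, and the GC correction 64 (30 lower, 34 higher) and 3 members. The shares of tested miRNAs called lower were 5.22%, 3.73% and 5.15%, and the medians −0.18, −0.08 and −0.05. Added after seeing the data, limma-voom with median-of-ratios factors called 28 miRNAs (11 lower, 17 higher) and 2 members, and median-of-ratios scaling without P0 replicate 1 called 327 miRNAs and 4 members. Here 1.64% and 27.2% of the tested miRNAs were called lower. With 1 library left out, 66 (without E14.5 replicate 3) to 410 (without P0 replicate 1) miRNAs and 3 to 7 members were called, with 9.70% to 53.4% of the tested miRNAs lower. Without E14.5 replicate 1, P0 replicate 2 or P0 replicate 3 the counts were 111, 114 and 136 miRNAs, with 16.4%, 16.7% and 20% of the tested miRNAs lower. The cause of these differences was not tested.

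Litters with the same replicate number had correlations of 0.193, 0.183 and 0.042 between their deviations, and 5 of the 6 libraries were closest to their own number. The labels give separate litters, and the titles of replicate 2 carry unlike numbers at the stages. The main fit therefore left the samples unpaired, and whether the numbers pair them is not known. A replicate block in TPM lowered the SE of miR-200a-3p from 0.74 to 0.49. The replicate block called 247 miRNAs (235 lower, 12 higher, 35.1% of those tested lower) and 7 members in TPM. It called 56 (23 lower, 33 higher, 3.43% of those tested lower) and 4 with median-of-ratios scaling, and 72 (35 lower, 37 higher, 6.01% lower) and 4 with the GC correction. The mean log2 change of the summed TPM was −3.67 for the family, −4.05 for the chromosome 4 and −2.98 for the chromosome 6 cluster, −3.70 for the AAUACUG and −3.66 for the AACACUG class. With median-of-ratios scaling these were −2.38, −2.76, −1.69, −2.41 and −2.37. Without E14.5 replicate 2 the sums in TPM changed by −4.39, −4.76, −3.72, −4.37 and −4.43, without P0 replicate 1 the chromosome 4 sum by −4.71, and without E14.5 replicate 1 the AACACUG sum by −3.03. The arm and cluster ratios kept their sign under a pseudocount of 0.1, recovered reads and each library left out, with log2 differences of −2.84 to −0.78 for miR-200b-3p over miR-200c-3p and −1.11 to −0.48 for miR-200a-3p over miR-141-3p when 1 library was left out. Depth limits miR-200b-5p in P0 replicate 2, which had 16 reads.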
